A study of Mus musculus with 6 samples.

Results

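The 9 pentose phosphate pathway genes described here are G6pdx, Pgls and Pgd of the oxidative steps, Rpia, Rpe, Tkt and Taldo1 of the non-oxidative steps, and Prps1 and Prps2, which carry the product of the pathway to phosphoribosyl pyrophosphate (PRPP). The rule for membership names the genes and uses no measured value, though earlier results of these data were known when it was set. They were found after the Ensembl identifiers of the count table were matched to GENCODE symbols, all 9 among 56941 identifiers. RNA-seq counts were compared between 3 libraries of vehicle-treated and 3 libraries of S1P-treated CD8+ T cells. By the labels the cells of both groups were naive CD8+ T cells purified from B6 spleens, while the study's general culture methods name either purified naive T cells or whole splenocytes. With no other allele or agent named, they were activated for 3 days on plate-bound antibodies to CD3 and CD28 with recombinant IL-2 at 100 U/ml. Vehicle, or sphingosine-1-phosphate (S1P) at 5 µM, was added after 24 h. S1P is a lipid that signals through G protein-coupled receptors on T cells, and the comparison asks which transcripts differ when activated CD8+ T cells meet it. The labels give no age for the mice, and the study's methods give young adult ages under tumor and transfer protocols, one of them worded for all experiments, so the age of these donors is uncertain. The labels call the replicates biological but do not say whether each came from its own mouse, so p-values measure the spread between these libraries.

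The pentose phosphate pathway branches from glycolysis at glucose 6-phosphate. Its oxidative steps make NADPH, which cells use for fatty acid synthesis and for the glutathione and thioredoxin systems, and end in ribulose 5-phosphate. The non-oxidative steps turn that sugar into ribose 5-phosphate or return carbon to glycolysis, and PRPP synthetases activate ribose 5-phosphate for nucleotide synthesis. Activated T cells are known to raise glucose use through both routes as they grow and divide.

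Library totals ranged from 13636095 to 17089831 counts with vehicle and from 12048880 to 17384084 with S1P. S1P replicate 2 stood apart, with 7.8% of its counts from mitochondrially encoded genes against 4.1% to 4.93% in the other 5 libraries, and values without it are given beside the members' results that it moved most. All 8 CD8 T cell markers passed the filter on low counts, and their summed level was 1711 to 1954 TMM-scaled CPM (counts scaled to a common library size) with vehicle and 1569 to 1771 with S1P. This list also holds general T cell genes such as Cd3e and Lck, so its sum does not measure CD8 T cells alone. Cd8a and Cd8b1 themselves fell, by 0.67 and 0.55 (log2, adjusted p = 0.000243 and 0.00767 by edgeR), while Cd2 rose by 0.33 (0.0131) and the other 5 did not pass both thresholds. Transcripts of other lymphocytes were present too. The 8 B cell markers, all tested, summed to 647 to 814 CPM with vehicle and 667 to 772 CPM with S1P, and of these Ebf1 rose while Ms4a1 and Cd22 fell. The 4 CD4 T cell markers, all tested, summed to 229 to 272 CPM with vehicle and 252 to 319 CPM with S1P, and Zbtb7b and Cd40lg rose. Cd4 itself was at 203 ± 18.4 CPM with vehicle and 218 ± 31.6 CPM with S1P (SD, n = 3). Cd8a was at 222 ± 24.9 CPM with vehicle and 139 ± 6.59 CPM with S1P. Of 9 myeloid markers 2 were tested, S100a8 and S100a9 had 0 counts in every library, and Lyz2, Csf1r, Adgre1, Itgam and Cd14 were each below 0.5 CPM. The myeloid sums of 72.8 to 90.5 CPM with vehicle and 79.5 to 91.2 CPM with S1P were nearly all Cybb, at 69.2 to 86.4 CPM, which B cells also express. NK markers summed to at most 4.21 CPM and erythroid markers to at most 1.02 CPM in any library. The part of other cells in the values below was not tested, and in bulk RNA fewer cells of a type cannot be told apart from less RNA per cell.

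After S1P no pathway transcript rose and Pgls fell, and the estimates of all 9 were small. The log2 fold change was negative for 9 of 9 members, with a median of -0.16 and a range from -0.34 to -0.009, while 48.5% of the 13299 tested genes had a negative value and their median was 0.01. Pgls was the 1 member past both thresholds, an adjusted p up to 0.05 by edgeR's quasi-likelihood test and a fold change whose log2 reaches 0.3 in either direction. That is 11.1% of the members, all of it downward, beside 23.1% of all tested genes, of which 12.7% rose and 10.4% fell, so the share that fell was close to the background. With all 6 libraries Taldo1 passed the adjusted p alone, which makes 2 members by that rule, beside 28.5% of tested genes in either direction and 13.8% lower. The Pgls call was not stable. No member was called without vehicle replicate 1, 2 or 3, and without S1P replicate 2 or 3 Taldo1 was called and Pgls was not. In 7 of 9 members (77.8%) every S1P library lay below every vehicle library, which was so for 22.6% of tested genes, and 45.6% had groups that did not overlap in either direction. Some of these gaps were very narrow. The nearest libraries were at 70.1 and 70.6 CPM for Rpe and both at 146 CPM, as rounded, for Pgd, while Taldo1 had 76.9 and 87.9 CPM. The count is given for TMM scaling only. Members are enzymes of 1 route measured in the same 6 libraries, so they are not independent of each other.

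Reference sequence is shown for windows at RefSeq transcript starts of 4 members. They are Pgls and Taldo1, the members past the adjusted p, and G6pdx and Pgd, the members with NRF2-type letters in a window. NRF2 is an oxidant-responsive transcription factor for which genes of this pathway are known targets. Each run is 300 bases long on the strand of the gene, 250 before the RefSeq transcript start and 50 after it, from RefSeq on GRCm38.p6, and all 9 members had at least 1 such window. The windows lie at chr8:71591934-71592233 (plus strand, Pgls), chr7:141391910-141392209 (plus strand, Taldo1), chrX:74428831-74429130 (minus strand, G6pdx) and chr4:149166033-149166332 (minus strand, Pgd, the downstream of its 2 windows). Capitals mark matches, on either strand, to the NRF2-type element TGACNNNGC, the E-box CACGTG bound by MYC and its relatives, and the hypoxia-element cores ACGTG and GCGTG, where CACGTG also holds ACGTG.
Pgls: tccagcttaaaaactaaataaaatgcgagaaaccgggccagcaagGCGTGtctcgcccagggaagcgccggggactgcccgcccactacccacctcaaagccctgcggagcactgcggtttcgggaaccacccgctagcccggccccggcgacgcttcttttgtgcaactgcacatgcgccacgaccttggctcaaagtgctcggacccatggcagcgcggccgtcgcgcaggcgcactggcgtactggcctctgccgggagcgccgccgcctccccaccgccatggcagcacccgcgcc
Taldo1: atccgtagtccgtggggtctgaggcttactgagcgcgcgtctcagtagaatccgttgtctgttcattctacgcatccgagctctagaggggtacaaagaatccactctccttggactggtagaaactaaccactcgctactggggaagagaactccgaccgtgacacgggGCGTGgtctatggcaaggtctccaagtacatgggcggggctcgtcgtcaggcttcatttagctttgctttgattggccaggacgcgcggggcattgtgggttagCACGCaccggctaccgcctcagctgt
G6pdx: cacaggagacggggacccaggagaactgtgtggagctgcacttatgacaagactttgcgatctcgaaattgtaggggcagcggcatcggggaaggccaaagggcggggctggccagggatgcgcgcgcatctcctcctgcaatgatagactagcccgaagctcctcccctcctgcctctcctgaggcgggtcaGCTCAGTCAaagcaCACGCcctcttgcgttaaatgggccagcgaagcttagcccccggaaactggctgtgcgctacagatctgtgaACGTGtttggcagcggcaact
Pgd: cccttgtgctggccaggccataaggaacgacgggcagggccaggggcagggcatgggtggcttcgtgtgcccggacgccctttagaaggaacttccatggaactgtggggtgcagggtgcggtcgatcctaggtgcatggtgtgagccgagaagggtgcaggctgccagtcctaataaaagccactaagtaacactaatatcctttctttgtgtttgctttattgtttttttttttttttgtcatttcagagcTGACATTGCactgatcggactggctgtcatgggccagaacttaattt

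The NRF2-type letters were found in 2 of 9 members, beside 12.4% of 32851 mouse promoter windows. In G6pdx they lay upstream of the start, and in Pgd only in the downstream window, within the transcribed bases. Just before them that Pgd window has a t-rich run ending in cag, as at the end of an intron. The bases that follow can be read as protein-coding sequence, so the Pgd match may not lie in a promoter. The upstream Pgd window held no NRF2-type letters, and which window serves as promoter was not tested. No member's window held the E-box CACGTG, which 7.15% of windows held, and only G6pdx held ACGTG, beside 19.6%. Of 13 genes of the glucose uptake and glycolysis list, 2 held the NRF2-type letters, 1 the E-box and 8 ACGTG. The core GCGTG occurred in 8 of 9 members, all but Rpe, beside 32.4% of windows and 8 of 13 genes of the glucose uptake and glycolysis list. In Pgd, which has 2 windows, the match was in the upstream one, not printed above, which lies at chr4:149166656-149166955. These are matches of letters in a fixed window and not measured binding sites. Members were counted as genes, with 10 windows for the 9, while the background was counted as windows. The members' windows were 51.3% to 67.3% G or C, and base composition was not matched to the background. The shares are therefore no measure of enrichment. Pgls and Taldo1, shown above for their lower values, shared only GCGTG, which Tkt, the member closest to no change, held as well.

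The oxidative steps begin with G6pdx, glucose-6-phosphate dehydrogenase, which makes the first NADPH and commits glucose 6-phosphate to the pathway (ENSMUSG00000031400, GRCm39 chrX:73449857-73472819, minus strand). Its level was 98.3, 107 and 99.1 CPM in vehicle replicates 1 to 3 and 94.6, 96.4 and 94.7 CPM in S1P replicates 1 to 3. The S1P libraries were closely grouped and all below the vehicle libraries, by a margin smaller than the spread among the vehicle libraries. The log2 fold change was -0.09 ± 0.06 (SE, n = 3 per group), with a 95% interval from -0.23 to 0.05 and an adjusted p of 0.327 by edgeR. A fall of more than about 0.23 or a rise of more than about 0.05 thus lies outside the interval.

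Pgls encodes 6-phosphogluconolactonase, which opens the lactone made by the first step (ENSMUSG00000031807, chr8:72044202-72053768, plus strand). It was at 19.5, 20.5 and 22.1 CPM with vehicle and at 17.5, 14.5 and 16.7 CPM with S1P. The groups did not overlap, and S1P replicate 2 was the lowest library. Pgls fell by 0.34 (log2; SE 0.10, 95% interval -0.57 to -0.12, adjusted p = 0.029 by edgeR), from a mean of 20.7 ± 1.29 to 16.2 ± 1.57 CPM (SD, n = 3). The call rests on few counts, from 165 to 343 per library, and was lost in 5 of 6 fits that left out 1 library, with adjusted p from 0.0216 to 0.121. Without vehicle replicates 1 to 3 the fold change was -0.39, -0.35 and -0.30 (adjusted p = 0.0513, 0.0717 and 0.121). Without S1P replicate 3 it was -0.37 (0.064), and without S1P replicate 2 it was -0.27 (0.0529). The same-strand gene Niban3 overlaps 18.1% of the exonic bases of Pgls, another 10.3% lie under Gm56877 on the opposite strand, and 25.6% of its 31-base stretches occur in other genes. Niban3 itself, known as a B cell transcript, was at 8.53, 7.04 and 8.81 CPM with vehicle and 8.61, 12 and 10.9 CPM with S1P, a log2 difference of 0.35 that missed the threshold (adjusted p = 0.11). How reads in the shared exons were assigned is not given in the sources used here, so the value of Pgls is uncertain to that extent.

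Pgd, 6-phosphogluconate dehydrogenase, makes the second NADPH and ribulose 5-phosphate (ENSMUSG00000028961, chr4:149233246-149251228, minus strand). Its libraries stood at 148, 152 and 146 CPM with vehicle and 134, 145 and 146 CPM with S1P. S1P replicate 1 was the lowest, and the other S1P libraries were next to vehicle replicate 3. Its fold change was -0.07 ± 0.06 on the log2 scale (95% interval -0.21 to 0.07, edgeR adjusted p = 0.458), and -0.03 without S1P replicate 1 (0.768). Summed over the 3 oxidative genes, the level was 271 ± 7.33 CPM with vehicle and 253 ± 5.94 CPM with S1P (SD, n = 3), a difference of -6.43%, with the S1P libraries at 246 to 258 CPM below the vehicle libraries at 265 to 279 CPM.

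**Figure D1:**
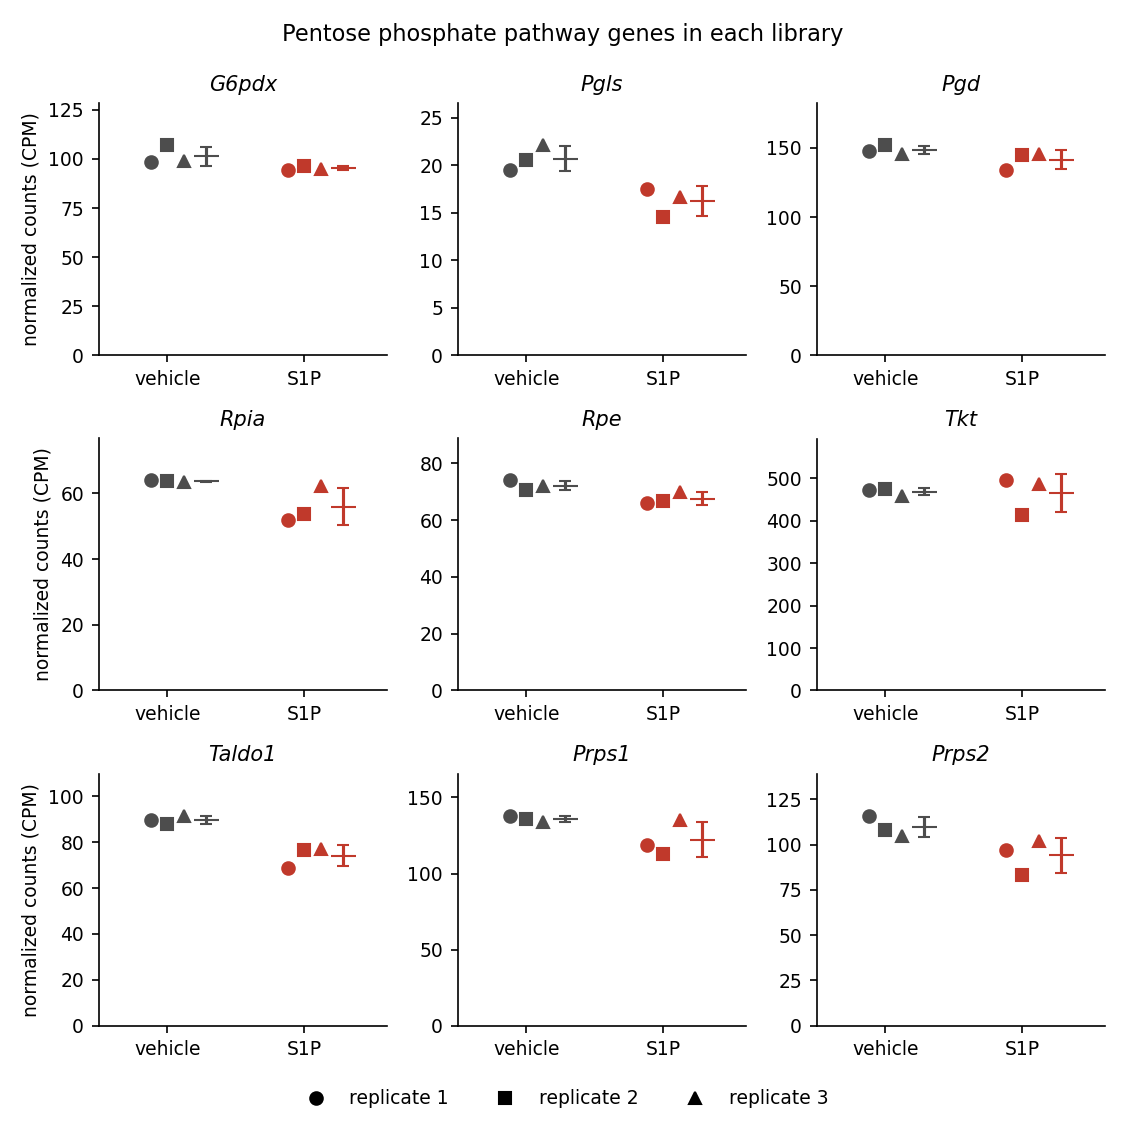
Normalized counts (CPM after TMM scaling, linear axes from 0) of the 9 members in each library, with vehicle in grey, S1P in red, symbols for the replicate and, beside them, the mean ± SD of 3 libraries. Pgls and Taldo1 show a gap between the groups, Tkt shows none, with S1P replicate 2 at 414 CPM below the other 5 libraries, and Prps1 overlaps through S1P replicate 3 at 135 CPM.

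Among the non-oxidative genes, Taldo1 differed most and Tkt least. Taldo1, transaldolase, moves 3-carbon units between sugars on the way back to glycolysis (ENSMUSG00000025503, chr7:140972053-140982886, plus strand). It measured 89.8, 87.9 and 91.6 CPM with vehicle and 69, 76.8 and 76.9 CPM with S1P. All S1P libraries were lower by more than the spread of either group, and S1P replicate 1, not replicate 2, was the lowest. The log2 fold change was -0.28 ± 0.07 (95% interval -0.43 to -0.12) with an adjusted p of 0.0125 by edgeR, below the size threshold of 0.3, from 89.8 ± 1.8 to 74.2 ± 4.55 CPM (SD, n = 3). Leaving out 1 library moved its adjusted p between 0.00351 and 0.0604. It was above 0.05 without vehicle replicate 1 (0.0507) and without vehicle replicate 3 (0.0604), and without S1P replicate 2 or 3 the fold change, -0.30 and -0.31, passed both thresholds. No exonic base of Taldo1 overlaps another annotated gene, while 11.4% of its 31-base stretches occur elsewhere, in Cep85l and others.

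Tkt encodes transketolase, which moves 2-carbon units and works at both ends of the non-oxidative branch (ENSMUSG00000021957, chr14:30270156-30299612, plus strand). The libraries stood at 472, 474 and 459 CPM with vehicle and 495, 414 and 487 CPM with S1P. Of the S1P libraries, 2 were above every vehicle library and S1P replicate 2 was below them all. For Tkt the fold change was -0.009 ± 0.08 in log2 (95% interval -0.18 to 0.16, edgeR adjusted p = 0.945), and its sign was not stable, being 0.07 without S1P replicate 2.

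Rpia, ribose-5-phosphate isomerase, makes the ribose used for nucleotides (ENSMUSG00000053604, chr6:70742704-70769216, minus strand). Its vehicle libraries were nearly the same, at 63.9, 63.6 and 63.5 CPM, while the S1P libraries were at 51.8, 53.8 and 62.3 CPM. S1P replicate 3 was thus close to vehicle and the other S1P libraries clearly below it. The log2 fold change of -0.19 ± 0.08 did not pass (95% interval -0.36 to -0.01, edgeR adjusted p = 0.102). Without S1P replicate 3 it was -0.28 with an adjusted p of 0.0305, still short of the size threshold.

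Rpe, ribulose-5-phosphate 3-epimerase, makes the xylulose 5-phosphate that transketolase takes (ENSMUSG00000026005, chr1:66739945-66765663, plus strand). It was at 74, 70.6 and 72 CPM with vehicle and 66.1, 66.6 and 70.1 CPM with S1P; the groups were separated, but vehicle replicate 2 and S1P replicate 3 lay close together. On the log2 scale Rpe differed by -0.10 ± 0.07 (95% interval -0.24 to 0.05, edgeR adjusted p = 0.307). Summed over the 4 non-oxidative genes, where Tkt dominates, the level was 694 ± 6.74 CPM with vehicle and 663 ± 45.7 CPM with S1P, a difference of -4.44%, and the groups overlapped. That difference rested on S1P replicate 2, at 611 CPM against 682 and 697 CPM in the other S1P libraries, and was -0.687% without it.

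The members for PRPP synthesis were Prps1 and Prps2, the ubiquitous catalytic subunits of PRPP synthetase. Prps1 (ENSMUSG00000031432, chrX:139346452-139376893, plus strand) measured 138, 136 and 134 CPM with vehicle and 119, 113 and 135 CPM with S1P. S1P replicate 3 lay within the vehicle range, so the groups overlapped. The log2 fold change was -0.16 ± 0.08 (95% interval -0.33 to 0.0032, edgeR adjusted p = 0.13), and -0.25 with an adjusted p of 0.0402 without S1P replicate 3. Prps2 (ENSMUSG00000025742, chrX:166125769-166165981, minus strand) measured 116, 108 and 105 CPM with vehicle and 97.2, 83.1 and 102 CPM with S1P. These groups did not overlap, though S1P replicate 3 came near to vehicle replicate 3. Prps2 thus differed by -0.22 ± 0.08 in log2 (95% interval -0.40 to -0.04), which missed the threshold at an adjusted p of 0.067 by edgeR, and by -0.14 without S1P replicate 2 (0.109).

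The balance of the 2 PRPP synthetase transcripts was also compared within each library. The log2 ratio of Prps2 to Prps1 was -0.25, -0.33 and -0.36 with vehicle and -0.29, -0.44 and -0.40 with S1P. The ranges overlapped, and the mean difference of -0.06 gave p = 0.4 in a two-sided exact permutation test, in which 3 against 3 cannot go below 0.1. Summed, the pair stood at 246 ± 8.15 CPM with vehicle and 216 ± 20.4 CPM with S1P (SD, n = 3), a difference of -12.2%, with S1P libraries at 196 to 236 CPM and vehicle libraries at 239 to 255 CPM, and -8.12% without S1P replicate 2.

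**Figure D2:**
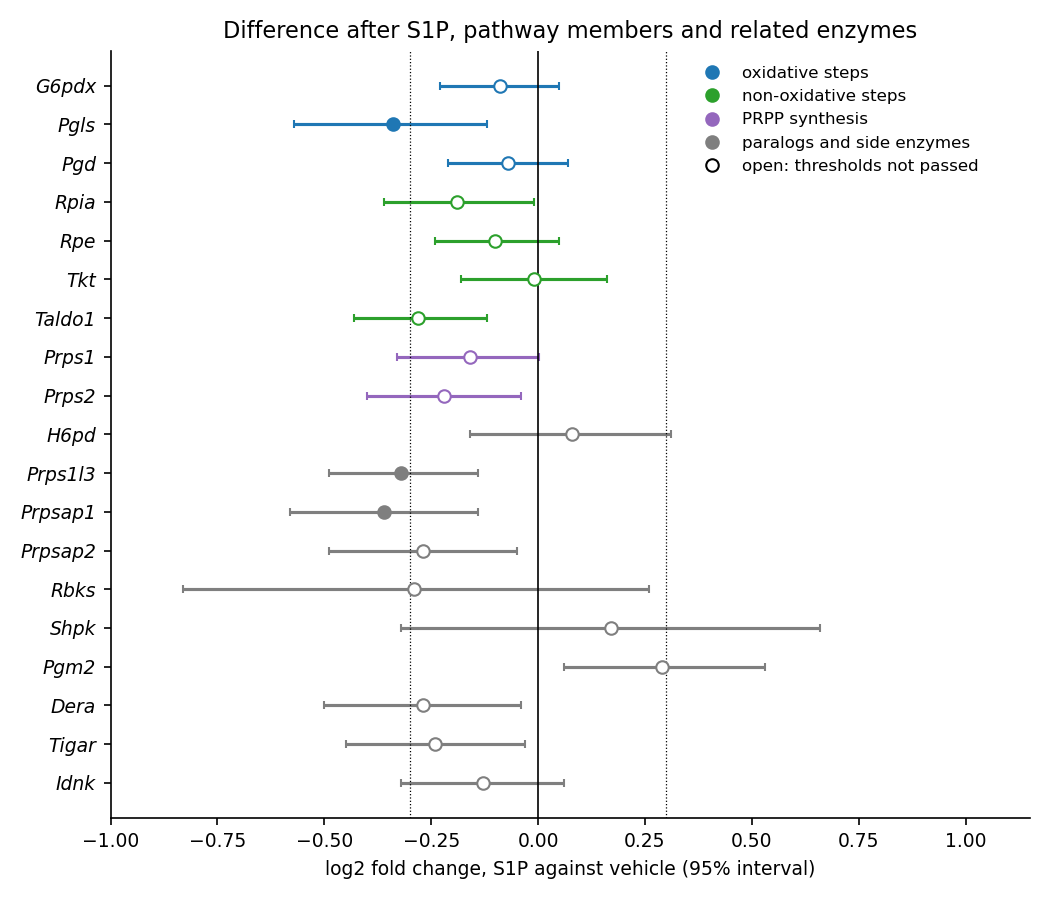
Log2 fold change of S1P against vehicle (x axis, edgeR, 3 libraries per group) with its 95% interval for the 9 members and the 10 tested paralogs and side enzymes. Dotted lines mark a size of 0.3 and filled points passed both thresholds: Pgls, Prps1l3 and Prpsap1, all lower with S1P, while the intervals of G6pdx, Pgd, Rpe, Tkt and Prps1 include 0.

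The libraries did not contribute evenly to the lower values. Relative to the vehicle mean, 8 of 9 members were lower in S1P replicate 1, 9 of 9 in replicate 2 and 8 of 9 in replicate 3, with median log2 deviations of -0.17, -0.22 and -0.04. S1P replicate 1 was the lowest S1P library for 5 members and replicate 2 for 4, so S1P replicate 3 was the lowest for none. Without S1P replicate 2, the library with the high mitochondrial share, 8 of 9 members kept a negative fold change and their median was -0.11, while without S1P replicate 3 the median was -0.25.

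Levels were compared between genes only per kilobase of transcript, and their order turned on which length was used. By merged exon length Prps1 led at 56.9 CPM per kb in vehicle, followed by Tkt at 44.7 and Taldo1 at 36.8 CPM per kb. By the length of the annotated canonical transcript Tkt led at 145 CPM per kb, followed by Taldo1 at 71 and Prps1 at 69.3 CPM per kb, whose vehicle libraries overlapped. With either length, and with the longest transcript, those 3 genes stood above the other 6, among which Pgd led. The place of Pgls depended most on the choice, at 4 CPM per kb (last) by merged exons and 21.9 CPM per kb (above G6pdx, at 17.2) by the canonical transcript. Within the oxidative steps Pgd was above G6pdx and Pgls under all 3 lengths.

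Enzymes beside the main steps were followed as a list of 13, of which 10 were tested. Of the 10, 2 fell (20.0%, beside 10.4% of all tested genes) and none rose (beside 12.7%), and their median log2 fold change was -0.26. The count was not stable, with 0 lower without vehicle replicate 1 or without S1P replicate 2, 1 lower without vehicle replicate 2 or 3, and 4 lower without S1P replicate 3. With upper-quartile factors 1 fell and 1 rose, and without S1P replicate 1 the count was 2 lower and 1 higher. Prpsap1, a regulatory partner bound to PRPP synthetase, was at 40.4, 40.9 and 39 CPM with vehicle and 33.1, 26.2 and 34 CPM with S1P and fell by 0.36 (log2, adjusted p = 0.0184 by edgeR). Leaving out any 1 vehicle library raised its adjusted p above 0.05, to 0.0648, 0.0628 and 0.0515 for replicates 1 to 3, and without S1P replicate 2 its fold change was -0.26. Its relative Prpsap2 had a value of -0.27 (adjusted p = 0.0635), and of -0.36 (0.0487) without S1P replicate 3 and -0.18 (0.116) without S1P replicate 2. Prps1l3, annotated as a Prps1-like gene, fell by 0.32 (adjusted p = 0.0128), from 93.4 ± 3.19 to 74.9 ± 7.47 CPM. The call was lost without vehicle replicate 1 (adjusted p = 0.0611) and without S1P replicate 2, where the fold change was -0.24, and with upper-quartile factors, where it was -0.29. Its exons lie under the same-strand gene Mipol1 for 28.3% of their bases, and 37.3% of its 31-base stretches occur in other genes. Reads of Prps1l3 and Prps1 can be confused, since 21.1% of the 31-base stretches of Prps1 occur in other genes, Prps1l3 first among them. The sum of both was 229.7 ± 5.29 CPM with vehicle and 197 ± 17.6 CPM with S1P (SD, n = 3), a difference of -14.4%, and it depends less on how reads were split between them.

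The other side enzymes had small values that did not pass by edgeR. They were -0.27 for Dera, which cleaves deoxyribose phosphate (adjusted p = 0.0724), -0.24 for Tigar, a fructose bisphosphatase that favours the pathway (0.0765), -0.29 for the ribokinase Rbks (0.42) and -0.13 for the gluconate kinase Idnk (0.289). Single libraries carried several of these. Rbks ranged from -0.44 without S1P replicate 3 to -0.02 without S1P replicate 1, and Dera was at -0.40 without S1P replicate 3, where it passed (0.0214), and -0.18 without S1P replicate 2. Positive values were 0.29 for Pgm2, which acts on pentose phosphates (0.0636), 0.17 for the sedoheptulose kinase Shpk (0.607) and 0.08 for H6pd, which makes NADPH inside the endoplasmic reticulum (0.632). Pgm2 passed with upper-quartile factors (0.32, 0.0475) and without S1P replicate 1 (0.34, 0.0487), Shpk ranged from 0.07 to 0.24 and H6pd from 0.02 to 0.15 with 1 library left out. Paralogs known from other tissues were at or near the limit of detection, with G6pd2 at 0 counts in every library and Tktl1 and Tktl2 at no more than 2 counts.

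Lists of the reactions on either side of the pathway differed from each other. A list of 14 genes of glucose uptake and glycolysis as far as Gapdh holds genes that supply or compete for glucose 6-phosphate. It also holds later steps, among them Aldoa, Aldoc, Tpi1 and Gapdh. Of the 14, 12 were tested and all 12 rose (100.0%, beside 12.7% of all tested genes), with a median log2 fold change of 0.73. The count was 11 when vehicle replicate 1 or 3, or S1P replicate 1 or 3, was left out. The fructose-bisphosphate aldolase gene Aldoc was highest, at 2.66 (edgeR adjusted p = 1.41e-05, from 7.95 ± 2.9 to 49.5 ± 7.71 CPM), followed by the glucose transporter genes Slc2a3 at 2.02 (0.000154) and Slc2a1 at 0.95 (0.000166). In the same libraries the member at the branch point, G6pdx, stood at -0.09. Summed levels of the glycolytic list were 5779 to 7193 CPM with vehicle and 9204 to 10733 CPM with S1P, and S1P replicate 2 had the lowest S1P sum. These rises run the other way from the paper's own report for S1P-treated CD8+ T cells. It describes lower transcript levels of key glycolytic genes, less uptake of a glucose analogue and less glycolytic activity. The reason for the difference was not tested.

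Several genes of nucleotide synthesis, which spends PRPP, fell. Of 11 de novo purine genes 5 fell (45.5%, beside 10.4% of all tested genes) and none rose, with a median of -0.21. Gart, which carries several steps of the purine ring, fell by 0.63 (adjusted p = 0.000273), Pfas by 0.55 (0.000973) and Adsl by 0.53 (0.000206). Of 5 de novo pyrimidine genes 4 fell, beside the same 10.4%, with a median of -0.52. Cad, the enzyme that starts the pyrimidine ring, fell by 0.75 from 336 ± 21.6 to 199.9 ± 41.4 CPM (0.00134), Umps by 0.59 (0.00017) and Dhodh by 0.52 (0.00302).

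Of 7 tested enzymes that use PRPP directly, 3 fell (42.9%, beside 10.4% of all tested genes), 1 rose (14.3%, beside 12.7%) and the median was -0.22. Besides Umps, which joins PRPP to orotate, these were Aprt of adenine salvage at -0.43 (adjusted p = 0.00997) and Ppat, the first committed step to purines and a member of the purine list too, at -0.32 (0.0117). The Aprt call was lost without vehicle replicate 2 (0.0502), and the Ppat call without vehicle replicate 1 (0.0504) or S1P replicate 1, where its fold change was -0.24, and with upper-quartile factors, where it was -0.29. Nampt, the salvage enzyme that joins PRPP to nicotinamide on the way to NAD, rose by 0.84 (6.62e-05), from 313 ± 13.6 to 561 ± 60.4 CPM. Neither PRPP synthetase gene passed the test.

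**Figure D3:**
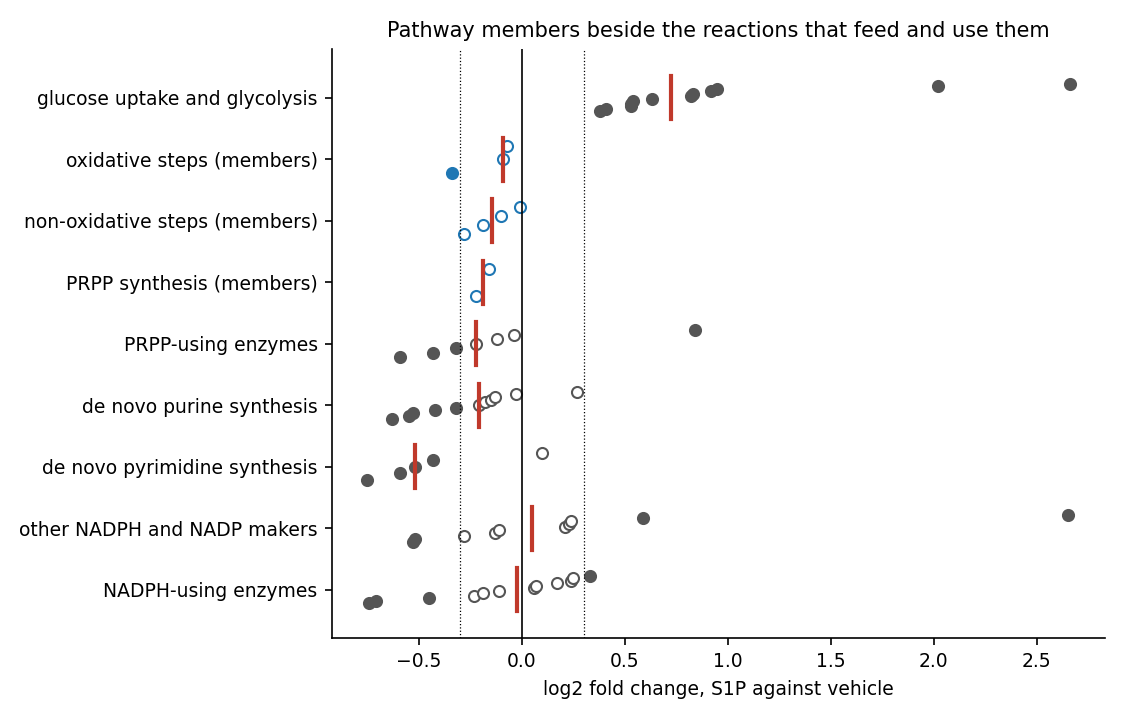
Log2 fold change of S1P against vehicle (x axis) for every tested gene of 9 lists, 1 point per gene, with members in blue, other genes in grey, filled points past both thresholds and red bars at the list median. The 12 genes of glucose uptake and glycolysis lie to the right of 0 with a median of 0.73, the 9 members lie close to 0 on its left, and the 5 pyrimidine genes have a median of -0.52.

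NADPH is also made outside the pathway, and 10 of 12 listed genes of those routes, with the NAD kinases that make NADP, were tested. They were split, with 2 higher (20.0%, beside 12.7% of all tested genes), 2 lower (20.0%, beside 10.4%) and a median of 0.05. Aldh1l2, a mitochondrial folate dehydrogenase, rose by 2.65 from a low level of 2.04 ± 0.735 CPM to 13 ± 1.69 CPM (adjusted p = 2.1e-05), and cytosolic isocitrate dehydrogenase Idh1 rose by 0.59 (0.0176). The Idh1 call was lost without vehicle replicate 3 (0.0683) and without S1P replicate 3 (0.0784). Nadk, the cytosolic NAD kinase, fell by 0.53 (0.00137) and Mthfd1 of cytosolic folate metabolism by 0.52 (0.000701).

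All 12 listed enzymes that spend NADPH were tested, with 1 higher (8.33%, beside 12.7% of all tested genes), 3 lower (25%, beside 10.4%) and a median of -0.02. Fasn, fatty acid synthase, fell by 0.74 from 673 ± 31.4 to 403 ± 49 CPM (adjusted p = 0.000208) and cytosolic thioredoxin reductase Txnrd1 by 0.71 from 245 ± 2.74 to 150.4 ± 7.01 CPM (4.03e-05). Txnrd2, the mitochondrial form, fell by 0.45 (0.0347), a call kept only when S1P replicate 1 was the library left out, with adjusted p of 0.108, 0.0904 and 0.0682 without vehicle replicates 1 to 3 and 0.0651 and 0.123 without S1P replicates 2 and 3. Por, the P450 reductase, rose by 0.33 (0.00673), a call that ended without vehicle replicate 1, where the fold change was 0.29, and with no filter on low counts, where it fell just short of 0.3. Without S1P replicate 1 the list had 2 genes higher. The falls of Fasn and Txnrd1 were larger in size than the value of any member.

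Among regulators tied to the pathway, transcription factors and the NRF2 inhibitor Keap1, 1 passed the thresholds. Of 8, all tested, Hif1a rose by 0.36 (adjusted p = 0.00474), which is 12.5% beside 12.7% of all tested genes, and 7 did not pass both thresholds, among them Nfe2l2, the gene of NRF2, at 0.17 (0.131) and Myc at 0.14 (0.12). Atf4 at 0.24 (0.022) and Trp53 at -0.19 (0.0493) passed the adjusted p alone. Of 10 NRF2 targets outside the pathway 8 were tested, with 2 higher and 2 lower (25% each, beside 12.7% and 10.4% of all tested genes) and a median of -0.25. Under RLE factors, total count scaling, no filter, DESeq2 and removal of mitochondrially encoded genes 3 were lower. The cystine transporter gene Slc7a11 rose by 1.65 (7.9e-05) and heme oxygenase Hmox1 by 0.70 (0.0137), while the peroxiredoxin Prdx1 fell by 0.59 (0.00353) and thioredoxin Txn1 by 0.36 (0.0112). The Hmox1 call was lost without vehicle replicate 1 (0.0675), and the Txn1 call without vehicle replicate 2 (0.0538), vehicle replicate 3 (0.051) or S1P replicate 2, where its fold change was -0.27. G6pdx and Pgd, the members with the NRF2-type letters, in Pgd only in its downstream window, stood at -0.09 and -0.07.

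The pattern of Pgls over the 6 libraries was most like that of Gnb1l, Hdac10 and Med22 (Pearson r = 0.993 of log2 CPM for each). With so few samples this measure separates little, since 357 tested genes outside the members reached 0.95.

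**Figure D4:**
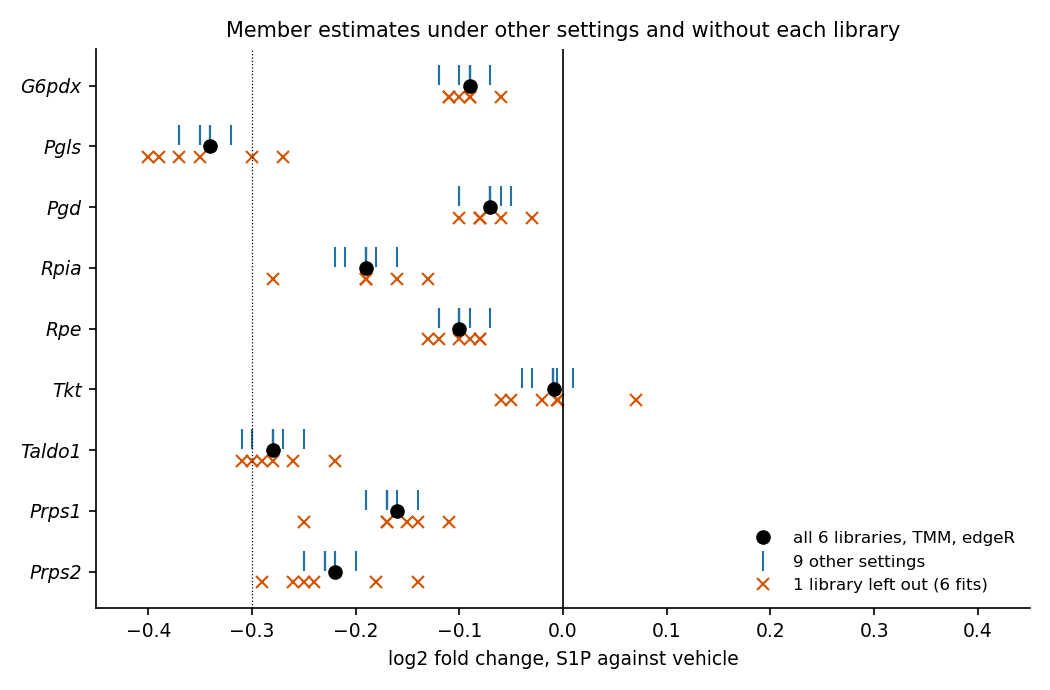
Log2 fold change of each member (x axis) with all 6 libraries (black), under 9 other settings of scaling, filter or test (blue bars) and with 1 library left out (orange crosses), with a dotted line at -0.3. Values stay left of 0 for every member but Tkt, and the crosses of Pgls spread from -0.40 to -0.27.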

How the data were processed

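RNA-seq of polyadenylated RNA was analysed in 6 samples, grouped by the treatment in their labels. Per the labels and the study's methods, the authors made strand-specific libraries, trimmed reads with Trim Galore, aligned them with STAR to GRCm39 (build from the submitters' processing notes) and deposited unnormalized featureCounts counts per gene. Tool versions, annotation release, strand setting and treatment of reads matching several places are not given in the sources used here. Of 56941 identifiers, 56323 were found in GENCODE vM39. Counts were scaled with TMM, filtered with filterByExpr and tested with the quasi-likelihood test of edgeR 4.0.16 (limma 3.58.1, R 4.3.3), treatment being the only term, with Benjamini-Hochberg adjustment over 13299 genes. Calls needed both an adjusted p up to 0.05 and a log2 fold change of size 0.3 or more. CPM are TMM-scaled. The code was tested on simulated data. RLE, upper-quartile or no factors, 2 other filters, DESeq2 1.42.0, limma-voom, a replicate block, removal of mitochondrially encoded genes, other fold thresholds and leaving out each library were tried, and the canonical transcript length and sums without S1P replicate 2 were added after seeing the data. Members and lists were chosen with earlier results of these data known. The text names all members and tested side enzymes, and from every other list the called genes with the largest rise and fall and at most 2 more by size. Exceptions, named after their values were seen, are Nfe2l2, Myc, Atf4, Trp53, cell markers and Niban3. Likeness to the member with the largest change was Pearson r of log2 CPM (prior count 2).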

Additional observations from a re-analysis of the deposited data

How the results depend on the processing

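Pgls kept its call under the 9 other settings of scaling, filter and test, and Taldo1 joined it with total count scaling and with no filter on low counts, which makes 2 members called lower there. Without a fold change threshold 2 members were lower, and with a log2 fold change of at least 1 there were 0, beside 383 genes higher and 82 lower over all genes. With 1 library left out, 0 to 1 member was called lower, 0 without vehicle replicate 1, 2 or 3. Tkt turned positive with upper-quartile factors (0.01, adjusted p = 0.908) and without S1P replicate 2 (0.07, adjusted p = 0.356), with a range of -0.06 to 0.07 over the libraries left out, and the cause was not tested. The other 8 members were negative in all 15 refits. With no filter, 34414 genes were fitted and the median over all genes moved to 0.16, while the members' median was -0.19. Same-numbered libraries deviated together with r = 0.12, -0.00598 and 0.0483, so the numbers were not taken as pairs. The replicate block called 1697 genes higher and 1423 lower, against 1687 and 1384, and left Pgls as the 1 member called. Pgls had the lowest counts of the 9 members, at 165 to 343 per library, and the 3 libraries per group limit all intervals.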
